A study of Mus musculus with 4 samples.

Results

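Among the dissociated cells of day 6 embryoid bodies (EBs), a small set carried transcripts of at least 3 of 6 marker genes, in LSD1KO and in WT EBs. The 6 were Bhlhe41, Trim63, Dscaml1, Bend7, Hs3st4 and Gstt2. All 6 were seen together in only 8 and 3 cells of the LSD1KO libraries and 0 and 1 cells of the WT libraries. A cell was counted as a Bhlhe41/Trim63 cell, or member, when at least 1 unique molecular identifier (UMI, one captured mRNA molecule) was seen for at least 3 of these 6 marker genes and when it held at least 2000 UMIs and 1000 genes. The set held 679 of the 17298 cells past the depth filter, 492 of them from LSD1KO and 187 from WT libraries, and the other 16619 cells of the same libraries were the comparison. Members were chosen by the UMIs of the 6 markers in these same cells, so levels in members against other cells are given as a description with no test, and tests are given only for LSD1KO against WT.

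The LSD1KO libraries came from V6.5 mouse embryonic stem cells (ESCs) in which CRISPR/Cas9 had removed the promoter and first exon of Lsd1 (Kdm1a, a histone H3K4 demethylase), and the WT libraries from V6.5 ESCs. Cells of both genotypes formed EBs in hanging drops for 6 days, in serum medium without 2i and LIF, and no cell type was sorted. Each genotype had 2 biological replicates with 1 10x Chromium 3′ library each. The p-values for genes rest on the spread between these libraries and on variance estimates shared across genes. Very small ones therefore do not come from 2 libraries per genotype alone. Kdm1a (chr4:136106455-136158638, minus strand, mm9) was at 2.61 and 0.820 CPM (UMIs of a gene in the summed cells, scaled to a common total) in LSD1KO members and at 198 and 203 CPM in WT members. This is the order the labels give, although 3′ tags lie outside the deleted part and read the transcript, not the deletion.

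BHLHE41 (DEC2) is a basic helix-loop-helix repressor tied to the circadian clock, and TRIM63 (MuRF1) is a ubiquitin ligase known from muscle atrophy. The MiT/TFE factors (TFEB, TFE3, MITF) bind E-boxes of the form CACGTG at lysosome and autophagy genes when nutrient signalling through mTORC1 falls, and p53 induces arrest, repair and death genes after DNA damage and other stress. DSCAML1 is a neural adhesion protein, HS3ST4 a heparan sulfate sulfotransferase, GSTT2 a glutathione transferase and BEND7 a BEN domain protein.

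The promoters of 5 genes that were high in the set are shown because each carries CACGTG and because the marker Bhlhe41 is one of them. Klf9, Mdm2 and Neu1, named below as high in the set, held no CACGTG in their listed promoters. Which factor binds these sites was not tested. Each run is RefSeq sequence of GRCm38.p6, 5′ to 3′ on the strand of the gene, from 250 bases before to 50 after the transcription start, and capitals mark CACGTG.
Bhlhe41, chr6:145865371-145865670, minus strand: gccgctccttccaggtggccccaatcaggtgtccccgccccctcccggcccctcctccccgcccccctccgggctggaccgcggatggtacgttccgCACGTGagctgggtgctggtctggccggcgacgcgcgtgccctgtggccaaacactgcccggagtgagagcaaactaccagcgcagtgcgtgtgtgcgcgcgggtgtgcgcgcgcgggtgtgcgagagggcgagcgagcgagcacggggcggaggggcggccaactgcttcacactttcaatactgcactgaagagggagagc
Crebrf, chr17:26715400-26715699, plus strand: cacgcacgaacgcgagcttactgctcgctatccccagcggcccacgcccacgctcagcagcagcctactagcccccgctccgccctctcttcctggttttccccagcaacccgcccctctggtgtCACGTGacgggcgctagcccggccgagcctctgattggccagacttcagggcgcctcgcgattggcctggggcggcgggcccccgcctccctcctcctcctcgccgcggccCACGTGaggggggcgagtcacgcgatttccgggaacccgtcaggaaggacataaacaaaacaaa
Ankrd12, chr17:66076997-66077296, minus strand: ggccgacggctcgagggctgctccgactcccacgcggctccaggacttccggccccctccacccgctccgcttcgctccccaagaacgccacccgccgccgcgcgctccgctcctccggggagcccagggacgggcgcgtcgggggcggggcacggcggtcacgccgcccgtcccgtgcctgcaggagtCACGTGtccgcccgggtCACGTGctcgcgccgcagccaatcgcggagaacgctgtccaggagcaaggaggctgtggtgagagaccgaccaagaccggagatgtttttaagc
Atp6v0b, chr4:117887280-117887579, minus strand: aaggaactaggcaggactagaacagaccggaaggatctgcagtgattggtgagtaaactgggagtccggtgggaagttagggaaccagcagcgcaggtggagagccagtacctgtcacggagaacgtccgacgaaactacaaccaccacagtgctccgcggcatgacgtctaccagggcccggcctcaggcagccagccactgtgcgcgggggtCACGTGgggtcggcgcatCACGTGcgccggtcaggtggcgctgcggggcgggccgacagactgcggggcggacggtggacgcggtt
Fnip1, chr11:54437929-54438228, plus strand: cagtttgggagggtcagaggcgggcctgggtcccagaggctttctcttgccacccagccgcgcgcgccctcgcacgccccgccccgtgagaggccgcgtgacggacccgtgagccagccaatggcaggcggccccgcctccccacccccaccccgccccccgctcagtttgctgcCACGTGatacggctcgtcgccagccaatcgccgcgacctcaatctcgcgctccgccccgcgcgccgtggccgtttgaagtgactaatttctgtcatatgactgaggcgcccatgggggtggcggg

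CACGTG reads the same on both strands. Of the 69 further genes that were high in cells with 4 or more markers, 58 had an entry in the promoter table, and 22 of these (37.9%) held CACGTG in at least 1 promoter, beside 11.98% of 9613 matched genes above the expression filter and 8.09% of 27025 genes of the table. The amino acid response element TTGCATCA was found in 2 of the 58 genes (3.45%, beside 0.697% of genes above the filter), the AP-1 motif TGACTCA in 4 (6.90%, beside 4.08%) and the forkhead motif GTAAACA in 6 (10.3%, beside 3.09%), with reverse complements counted. These are letter matches with no test, and no binding was measured. Of the 6 markers, Bhlhe41, Trim63 and Hs3st4 had an entry, and Bhlhe41 alone of these held CACGTG.

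The libraries held 72285943 to 75406512 UMIs each, and 2450 to 6338 cells passed the depth filter. Members had a median of 9412 and 30557 UMIs in LSD1KO replicates 1 and 2 and of 18114.5 and 9052 in WT replicates 1 and 2, whereas the other cells had 12917 and 24153 in LSD1KO and 14359 and 9604 in WT. LSD1KO replicate 2 was the deepest library per cell, and its cells with exactly 3 markers (median 32046 UMIs) were deeper than its cells with 5 (17353 UMIs). Because a cell read more deeply shows more of the markers, results are also given for cells with 4 or more markers, for cells thinned to a common depth and without LSD1KO replicate 2. Cells with 4 or more markers numbered 92 and 78 in LSD1KO and 24 and 41 in WT. Members at 8000 UMIs numbered 63 and 51 in LSD1KO and 16 and 36 in WT. The part of these smaller numbers in the genes called was not tested. Between 2 and 12 barcodes were shared by any pair of libraries, and no doublets were removed.

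The levels of the 6 markers, which the rule fixed to be higher in the set, are given as a description. Bhlhe41 (chr6:145806763-145814078, minus strand, mm9) was at 85.7 and 29.9 CPM in LSD1KO members and at 68.7 and 113 CPM in WT members, against 4.53 and 4.11 CPM in other LSD1KO cells and 2.54 and 4.56 CPM in other WT cells. Over the 4 libraries, the members of the set spanned 18.9 to 49.9 CPM for Trim63 (chr4:133871035-133885544, plus strand, mm9), 31.0 to 86.3 CPM for Dscaml1, 46.3 to 183 CPM for Bend7, 26.1 to 89.3 CPM for Hs3st4 and 53.2 to 117 CPM for Gstt2. The lowest value of each marker was that of LSD1KO replicate 2. A member positive for a marker held on average 1.29 to 2.98 of its UMIs. Trim63 was seen in 43.0% and 41.2% of LSD1KO members and in 34.3% and 38.5% of WT members, so most members showed none. Bhlhe41 was seen in 63.0% and 52.1% of LSD1KO members and in 62.9% and 70.9% of WT members. Outside the set Gstt2 was seen in 14.6% and 26.1% of LSD1KO cells and 9.58% and 8.01% of WT cells, and Bend7 in 14.6% and 23.1% of LSD1KO cells and 14.4% and 10.9% of WT cells, while the other 4 markers were each seen in 1.82% to 8.26%.

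Each marker was also read with itself left out of the rule, as a description, since the 6 were named because they occur together. In cells with at least 3 of the other 5 markers, Bhlhe41 was seen in 46.6% and 31.3% of LSD1KO cells and in 43.5% and 50.7% of WT cells, against 4.24% and 6.32% of LSD1KO cells and 2.70% and 3.52% of WT cells with none of the other 5. For Bend7 the shares were 52.1% and 48.9% in LSD1KO and 63.6% and 63.9% in WT, against 13.4% and 22.7% in LSD1KO and 13.9% and 10.1% in WT. For each of the 6 markers in each of the 4 libraries, the left-out marker was seen more often beside at least 3 others than beside none. The cells compared differed in depth in LSD1KO replicate 2 (median 32046 UMIs at 3 markers and 18780 at 0) and WT replicate 1 (23444.5 and 12332 UMIs), and the part of depth was not tested.

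Cells with exactly 3 markers, just inside, numbered 143 and 179 in LSD1KO and 46 and 76 in WT, and cells with exactly 2, just outside, numbered 505 and 421 in LSD1KO and 176 and 257 in WT. Bhlhe41 was at 53.4 and 16.5 CPM in LSD1KO cells and 39.4 and 96.4 CPM in WT cells just inside, and at 20.4 and 10.97 CPM in LSD1KO cells and 14.0 and 32.9 CPM in WT cells just outside, an order that the counting of Bhlhe41 in the rule favours.

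LSD1KO EBs held the larger share of Bhlhe41/Trim63 cells in these libraries. The share was 4.85% (exact 95% binomial interval 4.26 to 5.49) and 10.5% (9.30 to 11.8) in LSD1KO replicates 1 and 2, against 1.91% (1.49 to 2.41) and 1.85% (1.53 to 2.21) in WT replicates 1 and 2. The means were 7.67% ± 3.99 in LSD1KO and 1.88% ± 0.0471 in WT (SD, n = 2 each). The genotypes did not overlap, and the exact two-sided permutation test gave p = 0.33, the smallest that 2 against 2 libraries allow. With cells thinned to 8000 UMIs, which left out 1090 and 377 shallower cells in LSD1KO and 977 and 2153 in WT, the share was 1.68% and 2.46% in LSD1KO against 0.596% and 0.860% in WT, and at 2000 UMIs it was 0.784% and 0.449% in LSD1KO against 0.0820% and 0.252% in WT, where the intervals of LSD1KO replicate 2 and WT replicate 2 overlapped. With 4 or more markers asked for, it was 1.90% and 3.18% in LSD1KO against 0.656% and 0.647% in WT. Intervals cover counting error only.

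**Figure D1:**
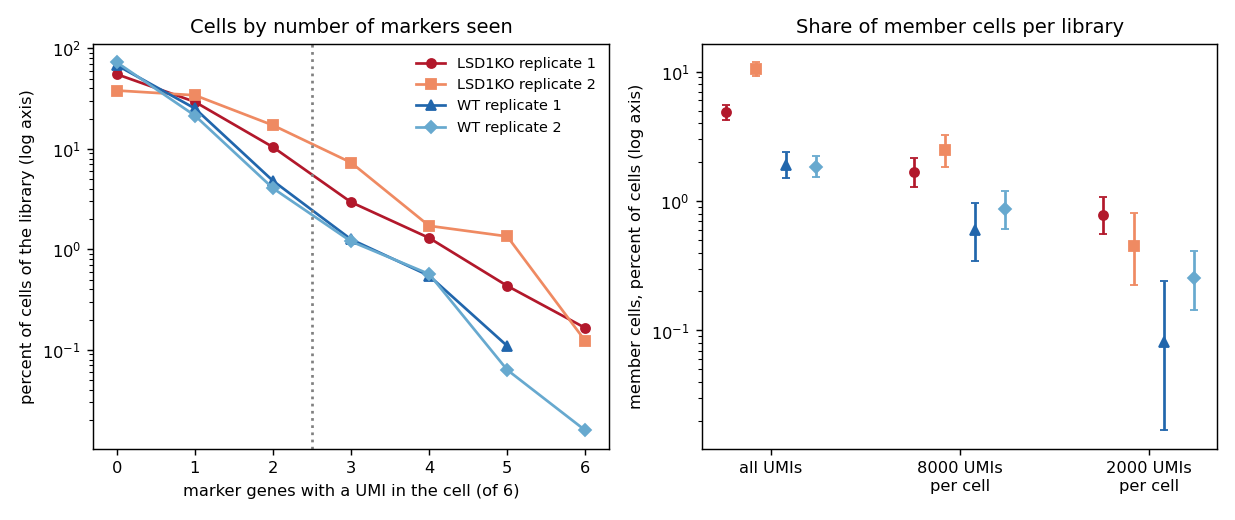
Left, percent of cells of each library (log axis) by the number of marker genes with a UMI, with the threshold marked. Right, share of member cells per library (log axis, exact 95% binomial intervals) with all UMIs and with cells thinned to 8000 or 2000 UMIs. Both LSD1KO libraries lie above both WT libraries, with 4.85% and 10.5% against 1.91% and 1.85% at full depth.

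The set also formed a neighbourhood in expression without the 6 markers. Of the 15 nearest neighbours of a member within its library, in 30 principal components computed without the markers, 32.1% and 33.3% were members in LSD1KO and 32.1% and 33.6% in WT. The neighbours of other cells were members in 3.40% and 9.09% of cases in LSD1KO and in 1.10% and 1.10% in WT. Around cells with 4 or more markers the share was 45.9% and 52.6% in LSD1KO and 49.4% and 44.4% in WT. Neighbours share library and depth, and most neighbours of a member were not members.

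Few genes marked the set in every library at 3 markers. Of 12000 genes with at least 5 CPM, 13 were at least 2-fold higher (after adding 5 CPM) in members of all 4 libraries (0.108%) and 0 at least 2-fold lower (0%). The 13 included the 6 markers, which leaves 7 that the rule did not use, among them Crebrf, Klf9, Ankrd12, Trp53inp1 and Neat1. Crebrf and Neat1 lay outside the rule for named genes and were chosen after their values were seen. LSD1KO replicate 2 had the smallest of the 4 ratios for these 5 named genes, and without it 63 genes beside the markers were higher and 3 genes lower. With 2 markers asked for, 0 genes beside the markers were higher.

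Crebrf, which encodes a regulator of the stress factor CREB3, was at 103 and 43.2 CPM in LSD1KO members and 82.3 and 121 CPM in WT members, against 14.1 and 10.9 CPM in other LSD1KO cells and 22.0 and 22.5 CPM in other WT cells. Klf9, a Krüppel-like factor induced by glucocorticoid, was at 228 and 129 CPM in LSD1KO members and 133 and 200.1 CPM in WT members, against 63.5 and 57.4 CPM in other LSD1KO cells and 31.7 and 37.7 CPM in other WT cells. For both genes the 4 member values lay above all 4 values of other cells. Ankrd12, which encodes an ankyrin repeat protein, was at 197 and 93.2 CPM in LSD1KO members and 173 and 239 CPM in WT members, against 43.5 and 39.1 CPM in other LSD1KO cells and 53.8 and 53.4 CPM in other WT cells. Trp53inp1, a p53 target that acts in autophagy and cell death, was at 242 and 133 CPM in LSD1KO members and 135 and 171 CPM in WT members, against 84.0 and 62.6 CPM in other LSD1KO cells and 28.0 and 37.6 CPM in other WT cells. These 2 genes were also separated in all libraries. Neat1, the RNA of nuclear paraspeckles, was at 48.2 and 28.5 CPM in LSD1KO members and 102 and 79.1 CPM in WT members, against 14.0 and 11.2 CPM in other LSD1KO cells and 31.9 and 17.5 CPM in other WT cells, so that each library's members lay above its own other cells while values overlapped between libraries. The median log2 ratio of members over other cells (5 CPM added) was 1.95 for Crebrf, 1.84 for Klf9, 1.83 for Ankrd12, 1.76 for Trp53inp1 and 1.51 for Neat1.

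**Figure D2:**
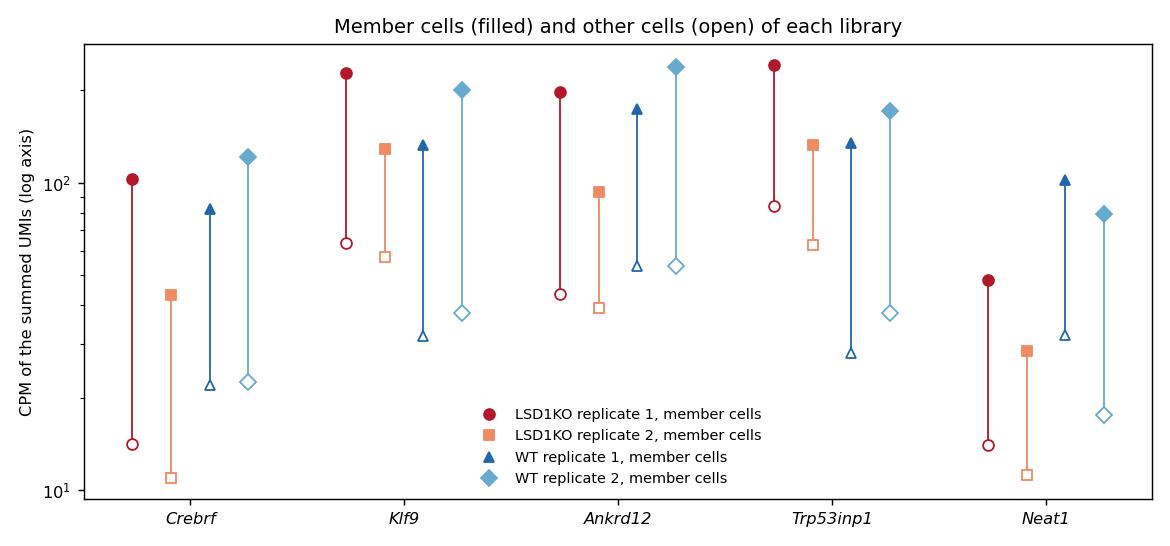
CPM of the summed UMIs (log axis) of 5 genes that the rule did not use, in members (filled) and other cells (open) of each library, joined by a line. The filled point lies above the open one in every library, with the smallest ratios in LSD1KO replicate 2, where Crebrf was at 43.2 CPM in members and 10.9 CPM in other cells.

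Levels climbed with the number of markers seen. In cells with 0, 1, 2, 3 and 4 or more markers, Crebrf was at 10.1, 14.5, 30.9, 60.5 and 195 CPM in LSD1KO replicate 1, at 10.7, 10.6, 11.7, 26.1 and 90.1 CPM in LSD1KO replicate 2 and at 20.4, 22.5, 51.9, 106 and 151 CPM in WT replicate 2. In LSD1KO replicate 2 the level was flat up to 2 markers. Of the 69 genes described next, 61 and 19 climbed at each step in LSD1KO and 41 and 58 in WT, beside 10.1% and 4.73% of 12000 genes in LSD1KO and 5.86% and 7.58% in WT. The 69 were chosen for their level at 4 or more markers, which favours the last step.

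**Figure D3:**
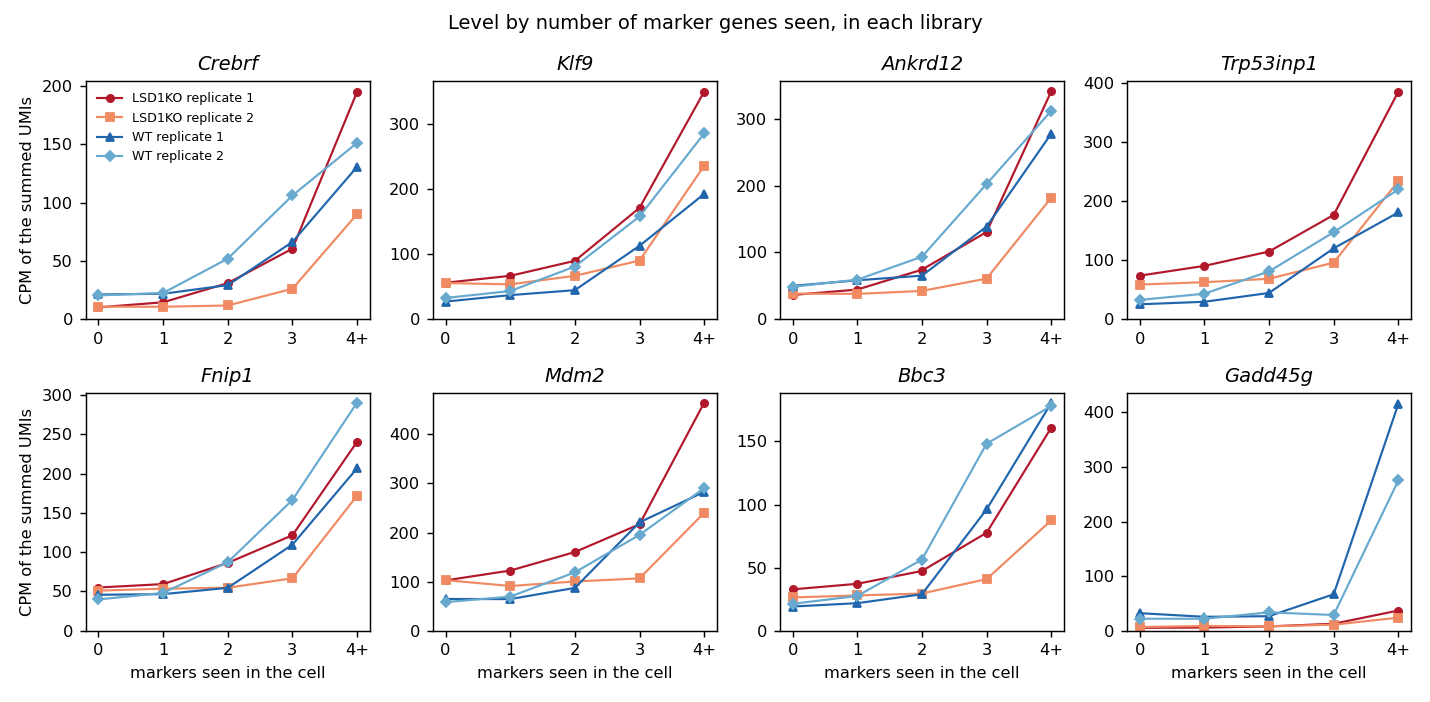
CPM of the summed UMIs of 8 genes in cells with 0, 1, 2, 3 and 4 or more of the 6 markers, one line per library. All 8 are highest at 4 or more markers in each library, for example Crebrf at 195 CPM in LSD1KO replicate 1 and 151 CPM in WT replicate 2.

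In cells with 4 or more markers, 75 of 12338 genes were at least 2-fold higher in all 4 libraries (0.608%) and 3 lower (0.0243%), which were Actc1, Rbms3 and Meis2. Without the 6 markers these were 69 genes, from sums of 24 to 92 cells per library. The cells with 4 or more markers are part of the set at 3 markers, so the 2 sets are not independent. Apart from Klf9, Ankrd12 and Trp53inp1, those named below were chosen after their values were seen.

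Lysosome and nutrient-sensing genes were one group among them. Fnip1, a partner of folliculin in mTORC1 control at the lysosome, was at 240.4 and 172 CPM in LSD1KO cells with 4 or more markers and 207 and 290.3 CPM in WT ones, against 62.3 and 54.4 CPM in LSD1KO cells and 48.0 and 45.8 CPM in WT cells with fewer. Rragc, a Rag GTPase of the same system, was at 149 and 87.1 CPM in LSD1KO cells with 4 or more markers and 121 and 109.8 CPM in WT ones, against 30.6 and 26.5 CPM in LSD1KO cells and 28.9 and 26.1 CPM in WT cells with fewer. Atp6v0b, a subunit of the vacuolar proton pump, was at 638 and 344 CPM in LSD1KO cells with 4 or more markers and 399 and 544 CPM in WT ones, against 169 and 156 CPM in LSD1KO cells and 110.1 and 107 CPM in WT cells with fewer. For these 3 genes every library's cells with 4 or more markers lay above all libraries' cells with fewer. The sialidase gene Neu1, the pump subunit gene Atp6v0d1, the lysosomal peptidase gene Dpp7 and the lysosomal thiol reductase gene Ifi30 had median log2 ratios of 2.05, 1.58, 2.15 and 2.46 at 4 or more markers. At 3 markers, 19 of 24 genes of the MiT/TFE and lysosome list lay above the other cells in all 4 libraries and 0 below, beside 19.2% and 23.5% of all genes, with a median log2 ratio of 0.78 against -0.02 over all genes. Tfe3, which encodes one of the factors, was at 34.9 and 38.7 CPM in LSD1KO members and 17.2 and 22.6 CPM in WT members, against 37.8 and 38.3 CPM in other LSD1KO cells and 17.3 and 16.4 CPM in other WT cells. Without LSD1KO replicate 2, 20 of the 24 lay above in the other 3 libraries, beside 23.5% of all genes above and 29.99% below in these 3.

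Genes that p53 is known to induce were also higher in the set. Mdm2, the ubiquitin ligase that restrains p53, was at 464 and 240.2 CPM in LSD1KO cells with 4 or more markers and 283 and 290.3 CPM in WT ones, against 119 and 98.4 CPM in LSD1KO cells and 69.5 and 65.8 CPM in WT cells with fewer. Bbc3 (Puma), a BH3-only death gene, was at 161 and 87.5 CPM in LSD1KO cells with 4 or more markers and 181 and 178 CPM in WT ones, against 37.4 and 29.2 CPM in LSD1KO cells and 22.4 and 26.2 CPM in WT cells with fewer. Both genes were separated in all libraries, and Plk2 and the polymerase gene Polk had median log2 ratios of 1.75 and 1.28. At 3 markers, 20 of 24 genes of the p53 list lay above in all 4 libraries and 1 below, with a median of 0.84. The 1 below was Trp53, which the list holds beside the p53 targets. Without LSD1KO replicate 2 the number above was 20, beside 23.5% of all genes. Of other BCL2 family and death genes, 2 of 18 lay above and 3 below in all 4 libraries, beside 19.2% and 23.5% of all genes.

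Clock genes lay higher in the set. Bhlhe40 (DEC1), the paralog of Bhlhe41, was at 26.7 and 12.5 CPM in LSD1KO members and 47.4 and 62.9 CPM in WT members, against 13.6 and 7.01 CPM in other LSD1KO cells and 2.09 and 2.33 CPM in other WT cells. Of the 15 circadian clock genes above the filter, 12 lay above in all 4 libraries and 0 below, with a median of 0.68, and 13 did so without LSD1KO replicate 2, beside 23.5% of all genes. The PAR-bZIP gene Dbp had a median log2 ratio of 0.85 and the nuclear receptor gene Nr1d1 one of 1.16, while Per2 had -0.08. Fbxo32 (atrogin-1), which is known beside Trim63 in muscle atrophy, and Foxo3 had median log2 ratios of 1.90 and 1.39 at 4 or more markers. At 3 markers, 8 of 20 genes of the FOXO and atrophy list lay above and 2 below, beside 19.2% and 23.5% of all genes. Myog, a skeletal muscle regulator, was at 0 to 0.117 CPM in members.

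Stress lists did not move as 1 group, and the set is therefore called by its markers Bhlhe41 and Trim63. Beside the list counts below stand 19.2% of all genes above and 23.5% below in all 4 libraries at 3 markers. Ddit3 (CHOP) and Ddit4 (REDD1) had median log2 ratios of 2.17 and 1.02 at 4 or more markers. Of the integrated stress response list 12 of 28 genes lay above and 1 below, with a median of 0.04. The summed level of this list split by genotype, with log2 ratios of 0.33 and 0.18 in LSD1KO and of -0.06 and -0.17 in WT. Asns, the asparagine synthetase gene, was at 101 and 75.6 CPM in LSD1KO members and 257 and 244 CPM in WT members, against 91.7 and 78.5 CPM in other LSD1KO cells and 318 and 367 CPM in other WT cells. Of the ER unfolded protein response list 1 of 15 lay above and 8 below, with a median of -0.39, and Hspa5 (BiP), the ER chaperone gene, was at 320.4 and 418 CPM in LSD1KO members and 246 and 177 CPM in WT members, against 498 and 501 CPM in other LSD1KO cells and 433 and 335 CPM in other WT cells. The heat shock list had 4 of 12 above and 3 below, and the NRF2 list 2 of 17 above and 3 below.

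S phase, cholesterol and oxidative phosphorylation genes lay lower in the set in both genotypes. Of 20 S phase genes 19 lay below in all 4 libraries and 0 above, with a median log2 ratio of -0.44, and the replication helicase gene Mcm5 was at 146 and 159 CPM in LSD1KO members and 62.1 and 62.1 CPM in WT members, against 181 and 181 CPM in other LSD1KO cells and 101 and 112 CPM in other WT cells. Of 20 cholesterol genes 12 lay below and 0 above, of 20 oxidative phosphorylation genes 13 and 0. Other growth lists lay nearer the 23.5% of all genes, with 6 of 20 mitosis genes below and 0 above, and 5 of 20 MYC and ribosome biogenesis genes below and 2 above. Ribosomal protein genes leaned the other way, with 25 of 35 above, 1 below and a median of 0.12.

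Of the cell type lists tried, none had a summed level above that of the other cells in all 4 libraries. Of 11 mesenchyme genes 8 lay below and 0 above, of 10 streak and nascent mesoderm genes 7 and 0, and of 8 trophoblast genes 5 and 0. Over all genes 23.5% lay below and 19.2% above. The summed level of the neuron list had log2 ratios of members over other cells of -0.24 and -0.21 in LSD1KO and of 0.99 and 1.07 in WT, and that of the germ cell list 0.98 and 0.79 in LSD1KO and -0.43 and -0.64 in WT. These lists went in opposite directions in LSD1KO and WT.

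A nuclear RNA moved with the set. Malat1 was at 13007 and 8201 CPM in LSD1KO members and 17821 and 21891 CPM in WT members, against 4772 and 4699.8 CPM in other LSD1KO cells and 8397 and 7205 CPM in other WT cells, with a log2 ratio of 1.45 and 0.80 in LSD1KO and of 1.09 and 1.60 in WT. The tables hold 0 mitochondrial genes, so no mitochondrial share stands beside it. The part of RNA quality in the genes above was not tested.

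**Figure D4:**
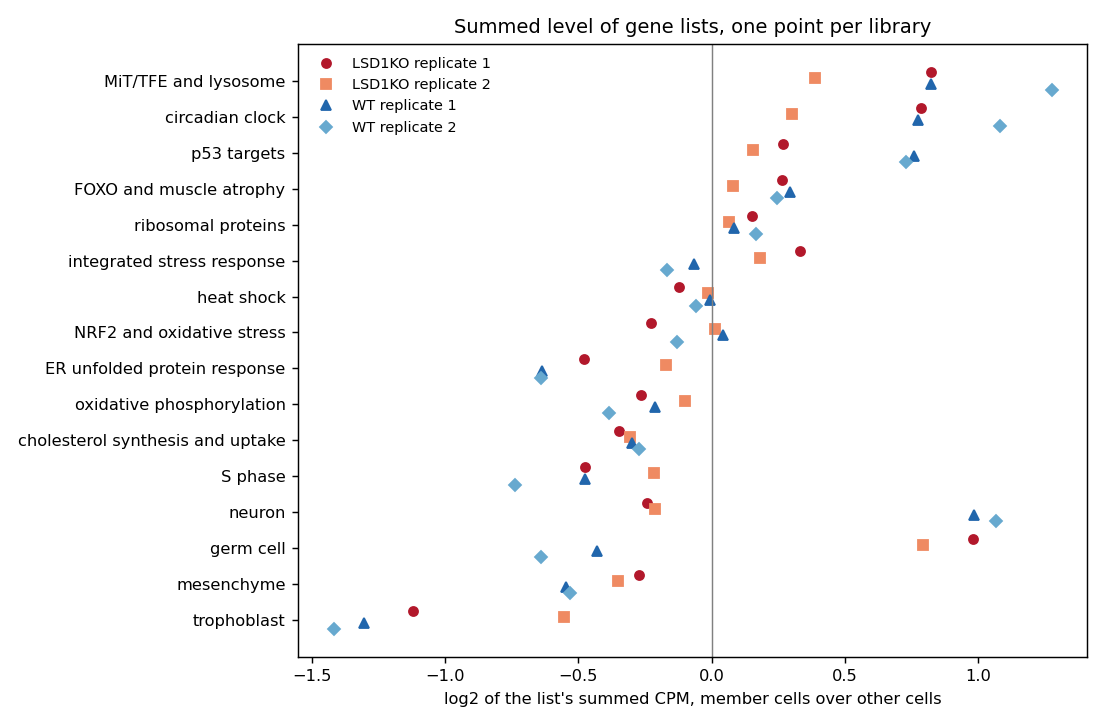
Log2 ratio of the summed CPM of gene lists in members over other cells, one point per library. The MiT/TFE and lysosome list (0.82 and 0.39 in LSD1KO, 0.82 and 1.28 in WT), the p53 list (0.27 and 0.15 in LSD1KO, 0.76 and 0.73 in WT) and the circadian list lie right of 0 in all 4 libraries. So do the FOXO and muscle atrophy list (0.26 and 0.08 in LSD1KO, 0.30 and 0.25 in WT) and the ribosomal protein list (0.15 and 0.07 in LSD1KO, 0.08 and 0.17 in WT). The neuron, germ cell and integrated stress response lists split by genotype.

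Within the set, LSD1KO and WT members differed widely. In edgeR's quasi-likelihood test on UMIs summed per library, 1080 of 11360 genes rose in LSD1KO (9.51%) and 810 fell (7.13%) at an adjusted p under 0.05, 1890 in all (16.6%). In the other cells 3811 of 16840 genes rose (22.6%) and 3666 fell (21.8%), 7477 in all (44.4%). Of the 11360 genes tested within members, 2544 rose and 2649 fell in the other cells. Member sums held 70 to 257 cells per library and sums of other cells 2193 to 6221. The part of this in the numbers called was not tested. Without LSD1KO replicate 2, 1135 genes passed within the set, and with 4 or more markers 326.

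Pluripotency and germ cell genes were among those that rose in LSD1KO members. Tdgf1 (Cripto, the Nodal co-receptor) was at 320.4 and 391 CPM in LSD1KO members and at 14.2 and 11.3 CPM in WT members (log2 fold change 4.68, SE 0.25, edgeR adjusted p = 5.23e-07), and the Nodal antagonist gene Lefty1 at 123 and 171 CPM in LSD1KO and 0 and 6.45 CPM in WT. L1td1, which encodes an RNA-binding protein of ESCs, was at 277 and 370.1 CPM in LSD1KO and 18.3 and 25.0 CPM in WT, and Dppa5a at 296 and 774 CPM in LSD1KO and 5.33 and 56.5 CPM in WT. Rnf17, a Tudor domain gene of germ cells, was at 173 and 166 CPM in LSD1KO and 7.103 and 4.03 CPM in WT. Ebf1, Adgrb3 and Ctnna2 were the other large rises, and for all 8 the genotypes did not overlap. With DESeq2, Lefty1 (adjusted p = 0.108) and Dppa5a (adjusted p = 0.0856) did not pass.

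By list, 7 of 11 general pluripotency genes rose and 0 fell in LSD1KO members, and 8 of 10 germ cell genes rose and 2 fell. Of all genes tested within the set, 9.51% rose and 7.13% fell. Of 14 neuron genes 10 rose, of 20 S phase genes 12 and of 17 NRF2 genes 10, and 0 genes of these 3 lists fell. In the other cells 6 pluripotency, 6 germ cell, 13 neuron, 14 S phase and 12 NRF2 genes rose, beside 22.6% of all genes tested there. With 1 library left out at a time, the rises within the set numbered 7 to 8 for pluripotency, 5 to 8 for germ cell, 6 to 10 for neuron, 7 to 15 for S phase and 6 to 10 for NRF2. With 4 or more markers they numbered 7 of 11 for pluripotency, 2 of 3 for germ cell, 2 of 10 for neuron, 3 of 18 for S phase and 4 of 16 for NRF2 genes tested. With cells thinned to 8000 UMIs they numbered 4 of 10 for pluripotency, 2 of 2 for germ cell, 1 of 5 for neuron, 2 of 17 for S phase and 0 of 13 for NRF2, where the medians of the log2 fold change were 0.60 for S phase and 0.30 for NRF2, against 0.69 and 0.79 with all UMIs.

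Surface epithelium and cardiac genes were among those that fell. Of single genes, Cdkn1c (p57, a cell cycle inhibitor) was at 13.4 and 13.5 CPM in LSD1KO members and at 268 and 259 CPM in WT members (log2 fold change -4.40, SE 0.20, edgeR adjusted p = 1.16e-07), and Grb10, an inhibitor of insulin signalling, at 22.8 and 13.8 CPM in LSD1KO and 252 and 159 CPM in WT. Spink1, Tnnc1 (cardiac troponin C), Nrp1, Cldn7 and Krt19 were the other large falls beside Kdm1a. Spink1 did not pass with DESeq2 (adjusted p = 0.0702) or in edgeR at 8000 UMIs (log2 fold change -1.11, adjusted p = 0.492), and Krt19 did not pass with DESeq2 (adjusted p = 0.0526). Of all genes tested within the set, 7.13% fell and 9.51% rose. Of 9 surface epithelium genes 8 fell and 0 rose, and of 12 cardiac genes 8 fell and 1 rose. Of 27 integrated stress response genes 14 fell and 0 rose (8 to 15 falls with 1 library left out), and of 14 clock genes 7 fell and 0 rose (3 to 6 falls). In the other cells 8 epithelium, 10 cardiac, 22 stress response and 5 clock genes fell, beside 21.8% of all genes tested there. Within the set with 4 or more markers, 4 of 7 epithelium, 1 of 2 cardiac, 3 of 24 stress response and 2 of 10 clock genes fell, and at 8000 UMIs 4 of 6 epithelium, 3 of 19 stress response and 0 of 6 clock genes. With DESeq2, 5 of 12 cardiac and 2 of 14 clock genes fell.

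Gadd45g, a growth arrest gene that was high in the set of both genotypes, was at 20.5 and 14.6 CPM in LSD1KO members and 154 and 111 CPM in WT members, against 5.94 and 8.02 CPM in other LSD1KO cells and 29.6 and 22.6 CPM in other WT cells. Its level within the set was lower in LSD1KO (log2 fold change -3.07, SE 0.22, edgeR adjusted p = 5.46e-06).

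The fold of members over other cells differed between the genotypes for 865 of 16650 genes (5.2%) in an edgeR fit with each library as a block, larger in LSD1KO for 348 (2.09%) and smaller for 517 (3.11%). Of the 69 genes of the cells with 4 or more markers, 32 had the smaller fold in LSD1KO and 0 the larger. The smaller folds numbered 10 without LSD1KO replicate 2, 10 with 4 or more markers asked for, 17 with DESeq2, 19 without WT replicate 2 and 1 with the replicate block in place of the library block. With cells thinned to 8000 UMIs, 3 were smaller and 1 larger, and the median difference over the 69 was -0.05, against -0.81 with all UMIs. The 69 were chosen as higher in all libraries, and the part of depth in their difference was not tested beyond these values.

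Of the 24 genes of the p53 list, 17 rose and 1 fell in other LSD1KO cells against other WT cells. Of all genes tested there, 22.6% rose and 21.8% fell. Within the set 2 of the 24 rose and 2 fell, near the 9.51% and 7.13% of all genes. The fold was smaller in LSD1KO for 15 and larger for 0, beside 3.11% and 2.09% of all genes. Trp53 itself was among the 17 and the 2 that rose, and not among the 15. Cdkn1a (p21, a cell cycle inhibitor) was at 297 and 177 CPM in LSD1KO members and 232 and 278 CPM in WT members, against 199 and 136 CPM in other LSD1KO cells and 58.7 and 76.9 CPM in other WT cells. The member values of the genotypes overlapped, and the fold differed by -1.48 on the log2 scale (SE 0.14, edgeR adjusted p = 3.02e-14). In the same fit Ccng1 differed by -1.15 (SE 0.15, adjusted p = 2.75e-09) and Mdm2 by -0.92 (SE 0.16, adjusted p = 7.22e-06). The number of p53 targets with the smaller fold was 10 without LSD1KO replicate 2, 6 with 4 or more markers, 3 at 8000 UMIs and 2 with the replicate number as block.

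Mt1, a metallothionein gene of the metal and stress response, was at 1179 and 1302 CPM in LSD1KO members and 1531 and 2281 CPM in WT members, against 769.9 and 943 CPM in other LSD1KO cells and 127 and 226 CPM in other WT cells. Its fold differed by -2.97 on the log2 scale (SE 0.13, edgeR adjusted p = 2.59e-36). Abcb1b, a drug efflux pump gene, was at 67.5 and 37.1 CPM in LSD1KO members and 68.1 and 85.5 CPM in WT members, against 29.9 and 23.0 CPM in other LSD1KO cells and 5.21 and 6.47 CPM in other WT cells. Gap43, which encodes a growth cone protein, was at 132 and 86.7 CPM in LSD1KO members and 61.6 and 80.7 CPM in WT members, against 138 and 104 CPM in other LSD1KO cells and 17.2 and 10.97 CPM in other WT cells, with members above other cells in WT alone. Bhlhe40, Ass1 of arginine synthesis and the scaffold gene Magi2 completed the 6 genes with the most reduced fold. Ass1 did not pass in edgeR with the replicate block (adjusted p = 0.0908) or at 8000 UMIs (adjusted p = 0.165).

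**Figure D5:**
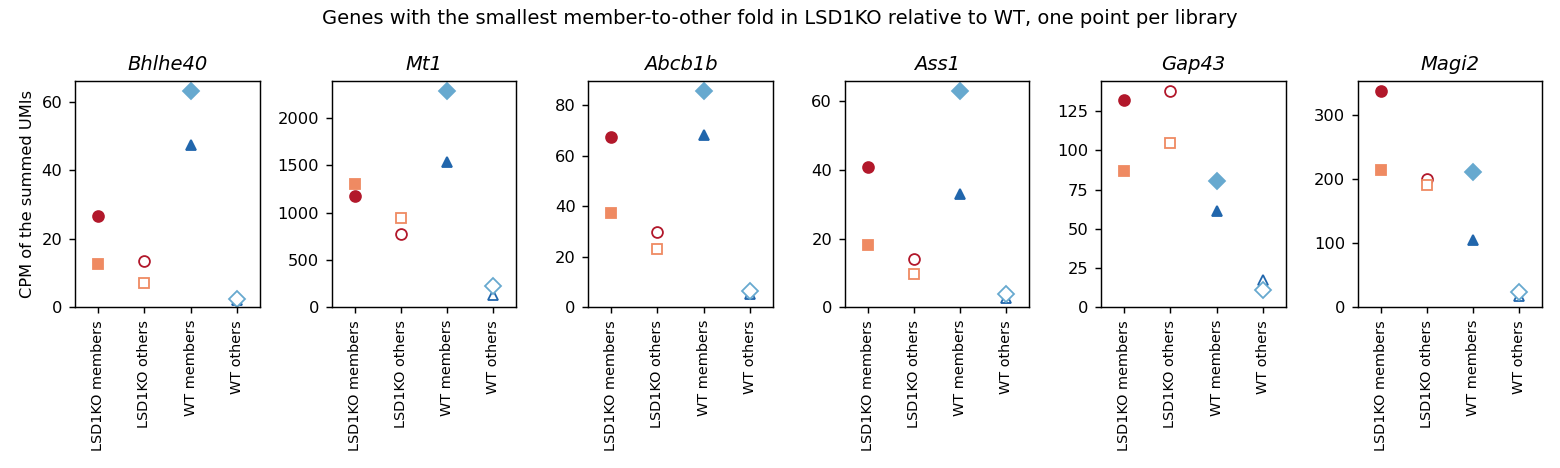
CPM of the summed UMIs of 6 genes in LSD1KO members, LSD1KO other cells, WT members and WT other cells, one point per library. For Mt1, LSD1KO members were at 1179 and 1302 CPM and LSD1KO other cells at 769.9 and 943 CPM, and WT members at 1531 and 2281 CPM and WT other cells at 127 and 226 CPM.

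Among genes with the larger fold in LSD1KO, Runx1t1, a corepressor gene, was at 23.8 and 17.8 CPM in LSD1KO members and 11.2 and 8.87 CPM in WT members, against 15.3 and 11.3 CPM in other LSD1KO cells and 63.7 and 33.7 CPM in other WT cells. Nhsl2 was at 8.15 and 9.14 CPM in LSD1KO members and 8.29 and 6.45 CPM in WT members, against 9.85 and 11.1 CPM in other LSD1KO cells and 68.5 and 38.6 CPM in other WT cells, and Spin2c at 8.80 and 10.4 CPM in LSD1KO members and 5.33 and 6.45 CPM in WT members, against 9.42 and 9.15 CPM in other LSD1KO cells and 52.8 and 36.3 CPM in other WT cells. For these 3 genes WT members lay below other WT cells. Ttr, Spink1 and Tbx20 were at 0 to 8.43 CPM in LSD1KO members and other LSD1KO cells, and their direction turned in at least 1 alternative. At 8000 UMIs Nhsl2 differed by 0.49 (edgeR adjusted p = 0.971) and Spin2c by 1.92 (adjusted p = 0.539), so neither passed. Of 30 integrated stress response genes, 12 had the larger fold in LSD1KO (40%, beside 2.09% of all genes) and 3 the smaller. The larger folds of this list numbered 9 with 4 or more markers, 3 at 8000 UMIs and 1 with the replicate number as block.

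Crebrf had a log2 fold of members over other cells that differed by 0.22 between LSD1KO and WT (SE 0.20, edgeR adjusted p = 0.711), and Ankrd12 by -0.25 (SE 0.17, adjusted p = 0.553). Rragc differed by -0.42 (SE 0.20, adjusted p = 0.285) and Atp6v0d1 by -0.27 (SE 0.16, adjusted p = 0.485). None of these 4 passed, which does not show equal folds. Klf9 (-0.78, SE 0.16, edgeR adjusted p = 4.26e-04) and Trp53inp1 (-0.97, SE 0.16, adjusted p = 2.61e-06) had smaller folds in LSD1KO. Of 26 MiT/TFE and lysosome genes, 9 had the smaller fold in LSD1KO (34.6%, beside 3.11% of all genes) and 0 the larger. Among the 9 were Fnip1 (-0.80, SE 0.17, edgeR adjusted p = 4.62e-04) and Neu1 (-1.07, SE 0.22, adjusted p = 2.33e-04). The smaller folds of this list numbered 3 with 4 or more markers, 2 at 8000 UMIs and 0 with the replicate number as block.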

How the data were processed

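The authors counted UMIs per gene and barcode with Cell Ranger 7.1.0 against mm9, per the labels' processing notes, which also name Seurat 4.3.0, and deposited 1 raw count matrix per library with 25209 genes, 0 of them mitochondrial. No normalization had been applied to the deposited counts. Cells were barcodes with at least 2000 UMIs and 1000 genes; doublets were not removed. Members and gene lists were chosen with earlier results of these data known, and the lists support no conclusion of their own.

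UMIs were summed per library over members and over other cells and scaled to CPM. Log2 ratios used 5 CPM added and genes with at least 5 CPM. LSD1KO and WT sums were compared by edgeR 4.0.16 (quasi-likelihood, TMM, Benjamini-Hochberg adjustment over all genes, R 4.3.3), with DESeq2 1.42.0 as an alternative. In these tests the 6 markers were fitted with all genes and left out of the counts of calls, while the counts of genes at least 2-fold higher in the set include them. In simulated counts the fit within members called 26 of 100 genes changed 2-fold, 99 of 100 changed 4-fold and 5 of 11075 unchanged, and the fit of the fold difference called 5 of 100, 60 of 100 and 4 of 16200. These counts had the same dispersion for every gene and no library effect, and the changed genes were not drawn from sparse ones. The rates need not hold for the libraries here. Shares have exact (Clopper-Pearson) 95% intervals and an exact permutation test (Python 3.11.15, scipy 1.17.1). Neighbours used scikit-learn 1.9.0. Thinning to 8000 UMIs was added after seeing the data.

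Genes were named by rule: the markers and Kdm1a; at least 2-fold changed one way in all 4 libraries with at least 50 CPM; up to 6 of each list; the 8 largest rises and falls in LSD1KO members; and the 6 largest differences of the fold each way. Rik and Gm models were counted only, and 1 result is not reported here. Promoter sequences are RefSeq's for GRCm38.p6, and gene positions are in mm9. LSD1KO and WT replicates were not deposits of 1 library (chi-square per degree of freedom 6.99 and 4.34).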

Additional observations from a re-analysis of the deposited data

Results flagged for a closer look

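The fold of members over other cells differed between LSD1KO and WT for 865 genes in the edgeR fit with a library block, and the 12 genes below were named from them as differing by that test. The fold was smaller in LSD1KO for Bhlhe40 (-3.76 on the log2 scale, LSD1KO minus WT), Mt1 (-2.97), Abcb1b (-2.83), Ass1 (-2.66), Gap43 (-2.54) and Magi2 (-2.49). It was larger in LSD1KO for Ttr (5.57), Spink1 (3.72), Spin2c (3.03), Runx1t1 (2.92), Tbx20 (2.92) and Nhsl2 (2.58). Ass1 did not pass with the replicate block (edgeR adjusted p = 0.0908) or at 8000 UMIs (0.165), and at 8000 UMIs neither did Spin2c (1.92, adjusted p = 0.539) nor Nhsl2 (0.49, adjusted p = 0.971). Ttr, Spink1 and Tbx20 changed direction in at least 1 alternative.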

How the results depend on the processing

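The share of members was higher in LSD1KO in every alternative run, by 0.449 to 15.2 percentage points, and by 2.97 to 8.61 with 1 library left out. The 13 genes higher in the set, markers included, numbered 46 with per-cell means, 6 with 2 markers asked for, 75 with 4, 29 without cells of very high UMIs, 140 at 8000 UMIs, 34 with 1 CPM added, 6 with 20 CPM added, 1 at a fold of 4, and 13 to 69 with 1 library left out. Without the markers these were 7, against 40 with per-cell means, 0 with 2 markers, 69 with 4, 23 without cells of very high UMIs, 134 at 8000 UMIs, 28 with 1 CPM added, 2 with 20 CPM added, 0 at a fold of 4 and 7 to 63 with 1 library left out. The 0 lower genes numbered 2 with per-cell means, 3 with 4 markers, 1 without cells of very high UMIs, 88 at 8000 UMIs, 2 with 1 CPM added, and 0 to 3 with 1 library left out. The 1890 genes that differed within the set numbered 994 with DESeq2, 4398 with 2 markers, 326 with 4, 238 at 8000 UMIs, and 954 to 2322 with 1 library left out, with 954 without WT replicate 1 and 1135 without LSD1KO replicate 2. The 865 differences of the fold numbered 375 with DESeq2, 371 with 2 markers, 399 with 4, 213 at 8000 UMIs, and 333 to 814 with 1 library left out, with 333 without LSD1KO replicate 2. The neighbour share of 32.8% was 30.8% with 30 neighbours and 27.9% with 10 components, where WT replicate 1 had 19.7%, against 32.1% with 30 components. The causes were not tested. With a replicate block, 1236 genes differed within the set, and 74 differences of the fold passed with the replicate block in place of the library block. The deviations of libraries with the same number from their genotype mean had r = -0.083 over genes. With 2 libraries per genotype the 2 pairs mirror each other, so this value cannot tell whether the numbers pair the libraries. Of 381 values of named genes under alternatives, 358 kept their direction and side of the threshold, 18 kept their direction and did not pass, and 5 turned. Ttr was at -3.89 with 4 markers and -1.88 to 9.57 with 1 library left out, Spink1 at -6.49 with 4 markers and -5.61 to 4.55 with 1 left out, and Tbx20 at -3.66 at 8000 UMIs; Ttr and Spink1 turned without LSD1KO replicate 2.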
